A study of Homo sapiens with 6 samples.

Results

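The genes described here are the distal-less homeobox genes DLX1 to DLX6, the antisense RNA DLX6-AS1 and the muscle segment homeobox genes MSX1 and MSX2. They were taken by gene name, and all 9 were found among the 58735 genes of the count and FPKM tables. The RNA came from SY5Y, a human neuroblastoma cell line, in 3 libraries of cells with the genotype DLX5 overexpression and 3 libraries with the genotype Control. The 6 libraries shared the medium, the extraction and the library kit. The construct, what the control cells carried and whether the line was 1 clone are not given in the sources used here. Nothing says that the replicates were grown separately, and p-values cover only the spread of these 6 libraries, which could be technical.

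DLX and MSX proteins are transcription factors that bind DNA through a homeodomain. The DLX genes lie in pairs that face each other and share enhancers, and they are known for their parts in forebrain interneurons, the branchial arches, limbs, teeth and bone. MSX proteins act mostly as repressors in many of the same embryonic tissues, including the neural crest that gives rise to sympathetic neurons, and DLX and MSX proteins can bind each other and counteract each other. BMP signals turn on genes of both families.

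The homeobox is the part of these genes that is most alike, and the stretch that codes for the third helix, which sits in the major groove of DNA, is shown to let the members be compared. The stretches are from GENCODE 29 transcripts (GRCh38), read in the sense direction, and capitals mark bases that differ from DLX5 at the same place.
DLX5: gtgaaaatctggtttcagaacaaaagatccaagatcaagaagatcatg
DLX6: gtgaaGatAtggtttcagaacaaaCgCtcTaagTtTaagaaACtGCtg
DLX1: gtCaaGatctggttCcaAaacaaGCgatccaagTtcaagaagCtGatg
DLX2: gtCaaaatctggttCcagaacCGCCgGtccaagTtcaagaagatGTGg
DLX3: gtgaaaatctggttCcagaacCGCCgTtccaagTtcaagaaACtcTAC
DLX4: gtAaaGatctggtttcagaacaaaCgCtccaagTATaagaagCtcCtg
MSX1: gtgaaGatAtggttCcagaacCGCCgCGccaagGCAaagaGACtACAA
MSX2: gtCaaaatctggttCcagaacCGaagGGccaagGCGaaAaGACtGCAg

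Over the whole homeobox of 180 bases, identity to DLX5 was 76.7% for DLX1, 76.1% for DLX2, 74.4% for DLX3, 73.3% for DLX6 and 68.9% for DLX4. It was 60.6% for MSX2 and 58.9% for MSX1. The longest run of bases shared without a mismatch by any transcript of DLX5 and any of another homeobox gene shown was 20 bases, with DLX3. With DLX6 it was 19, with DLX4 18, with DLX1 and DLX2 14 each, with MSX1 13 and with MSX2 11. Transcripts were compared in the sense direction only, and DLX6-AS1 was not compared. The sources used here do not give the read length.

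All members were higher with DLX5, whose own rise the design fixed. Of the 8 members other than DLX5, 5 had enough counts to be tested, and all 5 rose, beside 29.8% of all 17269 tested genes that rose and 28.8% that fell (edgeR quasi-likelihood test, Benjamini-Hochberg adjusted p under 0.05). A rise of at least 2-fold was found for 4 of the 5, beside 11.3% of all tested genes. In all 8, tested or not, each DLX5 library lay above each control. Among all tested genes 31.7% did so, and the share among untested genes was not computed. The median log2 fold change was 1.99 over these 5 and -0.0018 over all tested genes. These counts are a description, since the members were chosen with earlier results known, and DLX4 and MSX1 passed the filter on low counts only through the DLX5 libraries. The remaining 3, DLX1, DLX2 and DLX3, failed that filter and have no test.

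**Figure D1:**
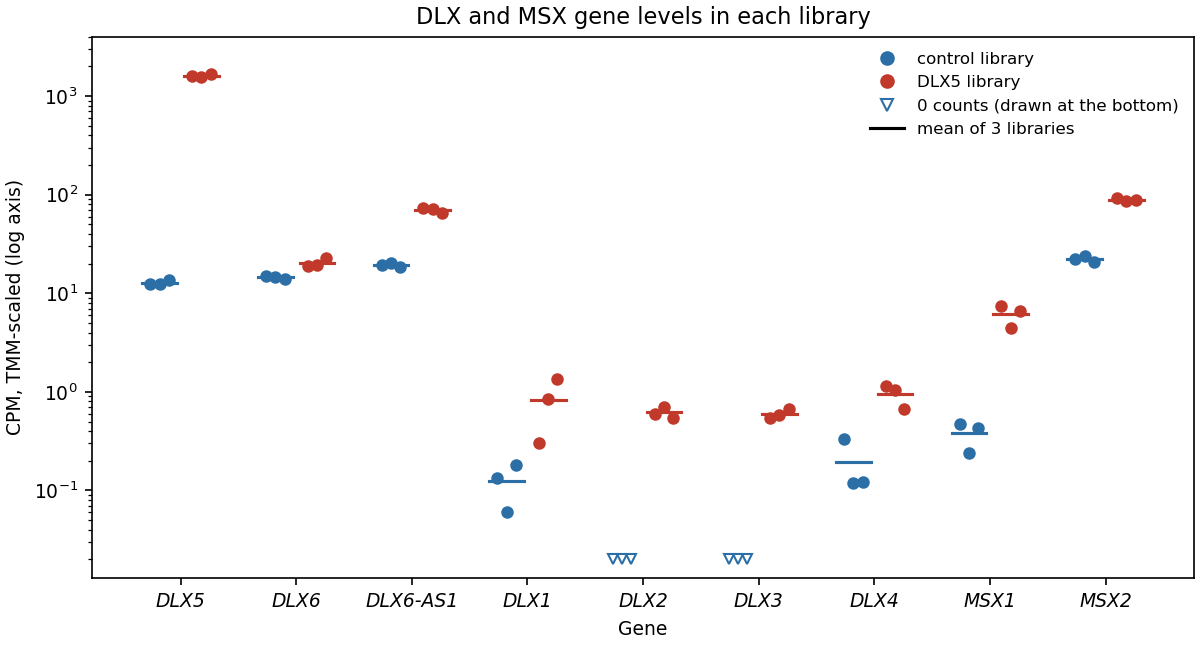
Level of each gene in each of the 6 libraries, in TMM-scaled CPM, on a log axis, with the mean of 3 libraries as a bar. DLX5 stands at 1569 CPM or more in the DLX5 libraries, and DLX2 and DLX3 have 0 counts in the 3 controls.

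DLX5 is the gene that was introduced and the check of the labels (ENSG00000105880, chromosome 7, 97020392 to 97024950, minus strand, GRCh38). It stood at 1582, 1569 and 1677 CPM (counts scaled to a common library total by TMM) in the DLX5 libraries and at 12.4, 12.3 and 13.8 CPM in the controls. Each library matched its label, and the groups lay far apart. It was 125-fold higher (log2 fold change 6.97 ± 0.08 SE, edgeR adjusted p = 1.86e-28). The counts do not separate an introduced copy from the cells' own gene. By mean FPKM (fragment counts scaled for gene length and library total), DLX5 had rank 19 among 19951 protein-coding genes in the DLX5 libraries and rank 5747 in the controls. Control cells already held DLX5 at 7.29 ± 0.464 FPKM (SD, n = 3), the level of a moderately expressed gene.

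DLX6 lies next to DLX5 and faces it (ENSG00000006377, chromosome 7, 97005548 to 97011039, plus strand). It is usually expressed together with DLX5. It stood at 19.0, 19.6 and 22.6 CPM in the DLX5 libraries and at 14.9, 14.6 and 13.9 CPM in the controls. The groups did not overlap, but the change was the smallest of the tested members, 1.41-fold (log2 fold change 0.49 ± 0.10 SE, edgeR adjusted p = 0.000149).

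DLX6-AS1, a long noncoding RNA also called Evf2 in the mouse, is transcribed from the opposite strand through DLX6 (ENSG00000231764, chromosome 7, 96955141 to 97014065, minus strand). It is known to recruit DLX proteins to the enhancers between the genes of this pair. It stood at 73.5, 71.2 and 65.5 CPM in the DLX5 libraries and at 19.4, 20.4 and 18.3 CPM in the controls. It rose 3.62-fold (log2 fold change 1.85 ± 0.08 SE, edgeR adjusted p = 5.58e-17). The exons of DLX6 and DLX6-AS1 share 0 bases in GENCODE 29, so spliced reads of either gene were not counted for the other. DLX6 lies within introns of DLX6-AS1, and unspliced DLX6-AS1 reads over DLX6 exons cannot be told apart from DLX6 reads without strand. Per kilobase, DLX6-AS1 stood at 0.804, 0.754 and 0.601 times the FPKM of DLX6 in the DLX5 libraries and at 0.269, 0.290 and 0.274 times in the controls. The ratio was higher in all 3 DLX5 libraries, with a mean of 0.720 ± 0.106 against 0.278 ± 0.0112 (SD, n = 3, exact two-sided permutation p = 0.1). That is the smallest p that 3 libraries against 3 allow.

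DLX1 and DLX2 form the pair on chromosome 2, and in the forebrain they are needed for interneurons to form and migrate. DLX2 (ENSG00000115844, 172099439 to 172102900, minus strand) had 10, 11 and 9 counts in the DLX5 libraries and 0 in each control. With the control group set to a floor of 3 counts in sum, DLX2 was 9.89-fold higher. That value leaves out counting error in the DLX5 libraries, so it is no strict lower limit. DLX1 (ENSG00000144355, 172084740 to 172089677, plus strand) had 5, 13 and 22 counts in the DLX5 libraries and 2, 1 and 3 in the controls. The DLX5 libraries were above the controls for both, but for DLX1 they differed more than 4-fold among themselves, at 0.301, 0.839 and 1.34 CPM. The DLX1 ratio was 6.60, with an exact 95% binomial interval of 2.78 to 19.0 that covers counting error only.

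DLX3 and DLX4 form the pair on chromosome 17. DLX3, known from skin, hair, tooth and placenta, had 9, 9 and 11 counts in the DLX5 libraries and 0 in each control (ENSG00000064195, 49990005 to 49995224, minus strand). With the same floor it was 9.56-fold higher, again without counting error in the DLX5 libraries. DLX4 (ENSG00000108813, 49968970 to 49974959, plus strand) had 19, 16 and 11 counts in the DLX5 libraries and 5, 2 and 2 in the controls. It passed the test (log2 fold change 2.29 ± 0.51 SE, edgeR adjusted p = 0.000437). The ratio of scaled counts was 5.06 (95% counting interval 2.45 to 11.8). Control replicate 1 weighed on the size, and without it the log2 fold change was 2.89. The summed counts of these low members in the DLX5 libraries were 40 for DLX1, 30 for DLX2, 29 for DLX3 and 46 for DLX4, which is 0.0371% to 0.0589% of the 78143 counts of DLX5 in the same libraries. Whether any of these counts come from DLX5 reads was not tested, and the longest runs shared with DLX5 are those given above.

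MSX1, known for its part in tooth and palate formation, was nearly silent in control and had the largest rise of the tested members after DLX5 (ENSG00000163132, chromosome 4, 4859666 to 4863936, plus strand). It stood at 7.40, 4.46 and 6.64 CPM in the DLX5 libraries and at 0.469, 0.240 and 0.426 CPM in the controls. The log2 fold change was 4.01 ± 0.31 (SE, edgeR adjusted p = 1.19e-11). With only 18 counts over the controls, the ratio of scaled counts was 16.5 with a 95% counting interval of 10.3 to 28.3.

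MSX2, a BMP-responsive gene of skull bone and neural crest that binds many of the same sites as DLX5, was already well expressed in control (ENSG00000120149, chromosome 5, 174724533 to 174730893, plus strand). It stood at 91.9, 86.8 and 89.0 CPM in the DLX5 libraries and at 22.4, 24.0 and 20.8 CPM in the controls. The libraries of each group lay close together and the groups were well apart, 3.98-fold (log2 fold change 1.99 ± 0.08 SE, edgeR adjusted p = 3.87e-18). By mean FPKM, MSX2 moved from rank 4499 to rank 856 among the protein-coding genes.

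**Figure D2:**
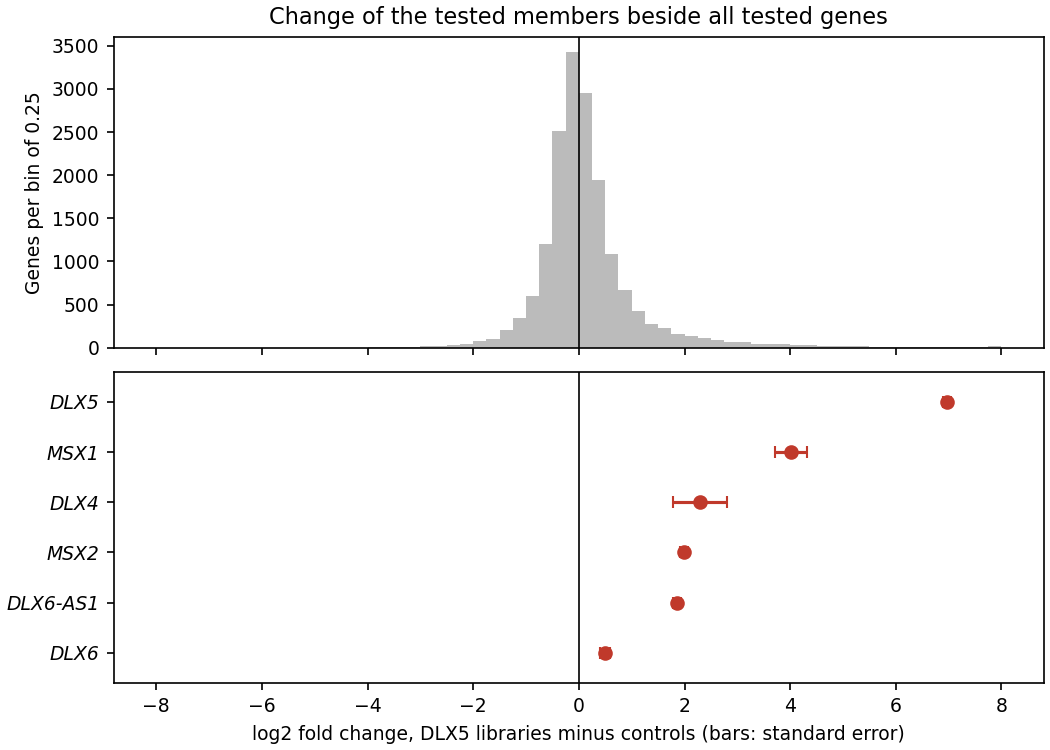
Upper panel, the number of genes at each log2 fold change (DLX5 libraries minus controls) over all 17269 tested genes. Lower panel, the 6 tested members with standard errors, from 0.49 for DLX6 to 6.97 for DLX5.

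The order of the members changed little apart from DLX5. On the FPKM scale, which allows levels of different genes to be compared, MSX2 was highest in control at 9.79 ± 0.690, followed by DLX5 at 7.29 ± 0.464, DLX6 at 4.16 ± 0.151 and DLX6-AS1 at 1.16 ± 0.0597 (SD, n = 3). MSX1 stood at 0.177 ± 0.0572 FPKM, DLX4 at 0.0524 ± 0.0337 and DLX1 at 0.0341 ± 0.0168, and DLX2 and DLX3 were at 0 counts. The library values of DLX4 and DLX1 overlapped. In the DLX5 libraries DLX5 came first at 913 ± 31.7 FPKM, then MSX2 at 39.0 ± 1.01, DLX6 at 5.85 ± 0.551, DLX6-AS1 at 4.18 ± 0.249 and MSX1 at 2.88 ± 0.706. DLX4, DLX1, DLX3 and DLX2 followed between 0.207 and 0.258 FPKM, and neighbours in that order overlapped between libraries. DLX5 made up 63.1% ± 2.28 of the summed FPKM of DLX1 to DLX6 in the controls and 99.3% ± 0.0441 in the DLX5 libraries (exact two-sided permutation p = 0.1, SD, n = 3). The introduced gene fixed the rise of this share, so the share is a description and its p-value tests nothing further. The other 5 DLX genes together had 4.25 ± 0.172 FPKM in control and 6.76 ± 0.626 with DLX5, most of it DLX6 (exact two-sided permutation p = 0.1, SD, n = 3). All 3 DLX5 libraries were above all 3 controls in both measures, and 0.1 is the smallest p this design allows.

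Promoters were compared for the members that the RefSeq promoter table (GRCh38.p14, 250 bases before to 50 after each start) holds, which are DLX1, DLX2, DLX6, DLX6-AS1, MSX1 and MSX2. The core sequences that DLX and MSX homeodomains bind in general, TAATTA and TAATTG, were searched on both strands. Of these 6 promoters, 2 held a match, those of DLX6-AS1 and MSX2. Over the 35116 promoters in the table, 4.84% held TAATTA, 7.38% TAATTG and 11.4% either. The matches did not overlap each other. The parts before the annotated start of the transcript are shown because these promoters hold the matches, which are in capitals. They run from 5′ to 3′ on the gene's own strand, at chr7:97014066-97014315 (minus strand) for DLX6-AS1 and at chr5:174724332-174724532 (plus strand) for MSX2.
DLX6-AS1: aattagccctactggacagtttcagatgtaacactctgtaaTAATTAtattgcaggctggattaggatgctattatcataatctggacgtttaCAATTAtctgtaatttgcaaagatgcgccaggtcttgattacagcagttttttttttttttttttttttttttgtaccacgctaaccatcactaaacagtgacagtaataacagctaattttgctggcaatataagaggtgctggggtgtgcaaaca
MSX2: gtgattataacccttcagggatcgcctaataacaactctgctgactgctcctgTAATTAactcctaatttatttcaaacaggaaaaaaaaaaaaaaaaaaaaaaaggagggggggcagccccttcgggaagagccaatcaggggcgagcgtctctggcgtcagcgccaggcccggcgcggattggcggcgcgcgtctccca

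DLX6-AS1 held TAATTA once and TAATTG once, the latter as its reverse complement, and MSX2 held TAATTA once. These are the 2 members with rises of 3.62-fold and 3.98-fold. MSX1, which rose more, DLX6, which rose less, and DLX1 and DLX2 had no match in their windows. The DLX1 window starts at 172085257, inside the gene as annotated above, so no base before that annotated start was searched. GC content was 36.0% in the DLX6-AS1 window and 57.0% in that of MSX2, against 59.0% to 74.7% in the windows without a match. A match describes letters only, and binding was not measured.

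Genes near the members were compared to see how the surrounding chromosome moved. Within 500 kb of a member's start site lay 32 other protein-coding genes, of which 29 were tested. Among them 9 rose and 9 fell, with a median log2 fold change of -0.00676, against 29.8% and 28.8% of all tested genes. At the DLX5 and DLX6 locus both neighbours were tested and 0 rose. SEM1, a proteasome subunit 296 kb from DLX6, stood at 78.6, 80.2 and 84.9 CPM in the DLX5 libraries and 85.1, 83.3 and 77.3 CPM in the controls, and the groups overlapped (log2 fold change -0.01 ± 0.06 SE, edgeR adjusted p = 0.89). The other, SDHAF3, an assembly factor of succinate dehydrogenase, fell by 0.41 ± 0.10 on the log2 scale and is named with its values known.

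The largest changes among the neighbours were in adhesion and matrix genes. ITGA6, an integrin subunit for laminin that lies 324 kb from DLX2, stood at 278, 308 and 258 CPM with DLX5 and at 6.30, 6.29 and 7.37 CPM in control (log2 fold change 5.40 ± 0.09 SE). ITGA3, another laminin-binding integrin subunit 60.7 kb from DLX3, stood at 841, 822 and 838 CPM against 86.2, 80.3 and 86.9 CPM (log2 fold change 3.30 ± 0.06 SE). COL1A1, the main chain of type I collagen, lies 206 kb from DLX3 and is also a reported DLX5 target. It stood at 1971, 1886 and 1982 CPM against 130, 119 and 135 CPM (log2 fold change 3.93 ± 0.07 SE). In each of these the groups were far apart. ACSF2, an acyl-CoA synthetase, rose by 1.40 ± 0.10, and XYLT2, which starts glycosaminoglycan chains, by 0.84 ± 0.07 (log2 fold change ± SE). NGFR, the low-affinity neurotrophin receptor, fell by 1.54 ± 0.12 on the log2 scale. Of the 2 tested genes around MSX1, 1 rose and 0 fell, and MSX2 had 0 protein-coding neighbours within 500 kb. Of the 19 tested genes around DLX3 and DLX4, 6 rose and 6 fell, and of the 6 around DLX1 and DLX2, 2 rose and 2 fell. Besides ITGA6 these were the mitochondrial carrier SLC25A12, up by 0.86 ± 0.11, and the kinase PDK1 and the histone acetyltransferase HAT1, at -0.84 ± 0.09 and -0.53 ± 0.08 (log2 fold change ± SE), named after their values were seen.

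**Figure D3:**
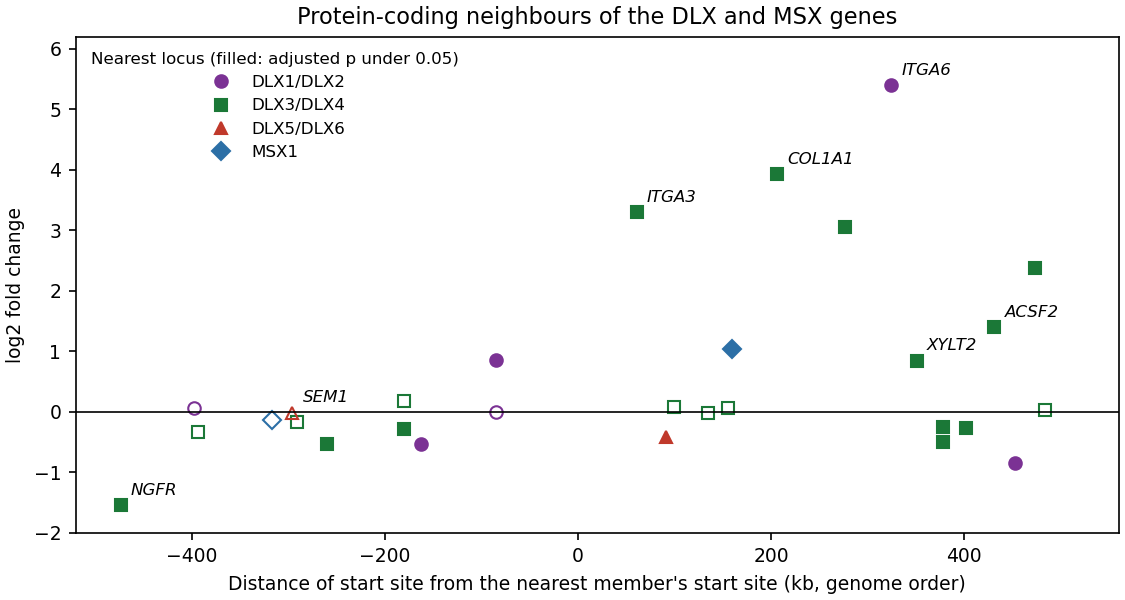
log2 fold change (DLX5 libraries minus controls) of the 29 tested neighbours against the distance of their start site from that of the nearest member, in kb. ITGA6, COL1A1 and ITGA3 stand highest, and SEM1, near DLX6, lies at -0.01.

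Upstream signals of the family changed in both directions. Of 25 genes of BMP and endothelin signalling, 23 were tested, 10 rose, 7 fell and 6 missed the threshold, with 29.8% of all tested genes rising and 28.8% falling. The list's median log2 fold change was 0.08. BMP4, a ligand that turns on MSX and DLX genes, stood at 7.10, 6.46 and 8.46 CPM with DLX5 and had 4 counts over the 3 controls (log2 fold change 6.33 ± 0.38 SE, edgeR adjusted p = 9.22e-14). BMP4 passed the filter on low counts only through the DLX5 libraries. BMP7, another ligand of the pathway, went the other way, from 38.4, 34.0 and 34.3 CPM in control to 3.37, 1.61 and 2.43 CPM with DLX5 (log2 fold change -3.83 ± 0.14 SE). The groups did not overlap for either ligand. EDN1, the peptide that acts upstream of DLX5 and DLX6 in the lower jaw, rose by 2.46 ± 0.12, and GREM1, a secreted BMP antagonist, by 1.60 ± 0.06 (log2 fold change ± SE). SMAD9, a transducer of BMP signals, fell by 1.60 ± 0.06, and ID2, a usual BMP target, fell by 1.27 ± 0.06 on the same scale. The other ID genes, named after their values were seen, went both ways, ID4 at 1.22 ± 0.10, ID3 at 0.31 ± 0.07 and ID1 at -0.39 ± 0.08.

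Of 25 genes reported in other tissues as targets of DLX or MSX proteins, 18 were tested, 6 rose, 5 fell and 7 missed the threshold, shares near those of all tested genes (29.8% rising, 28.8% falling). The median log2 fold change was 0.49. COL1A1 and BMP4, given above, had the smallest adjusted p. SPP1, the bone matrix protein osteopontin, stood at 4.81, 4.71 and 4.81 CPM with DLX5 and 0.938, 1.02 and 0.974 CPM in control (log2 fold change 2.28 ± 0.23 SE). NRP2, a semaphorin receptor that DLX proteins are known to repress in the forebrain, rose by 0.62 ± 0.06 (log2 fold change ± SE). The remaining rises, named after their values were seen, were GAD1, the GABA-synthesis enzyme of interneurons, by 3.74 ± 0.59 from 4 to 59 counts over the group, and the insulin receptor substrate IRS2, by 0.41 ± 0.07. GAD1, like BMP4, passed the filter on low counts only through the DLX5 libraries. HAND2, a factor of sympathetic neurons that lies downstream of DLX5 and DLX6 in the branchial arches, stood at 642, 619 and 680 CPM with DLX5 and 1307, 1178 and 1204 CPM in control (log2 fold change -0.93 ± 0.06 SE). Its exons share 24.1% of their bases with HAND2-AS1, which held 45.7% as many counts. HEY1, a Notch effector, fell by 0.75 ± 0.10 on the log2 scale, and so did MYC and the alkaline phosphatase ALPL, named after their values were seen, with log2 fold changes of -0.43 ± 0.07 and -0.64 ± 0.12. RUNX2, the osteoblast regulator that MSX2 restrains and DLX5 activates in bone, stood at 0.963, 0.969 and 1.04 CPM with DLX5 and 3.28, 2.40 and 2.92 CPM in control (log2 fold change -1.53 ± 0.28 SE). Its span overlaps that of SUPT3H, but their exons share 0 bases. The targets IBSP, GAD2, OTP and EVX1, named after their values were seen, had 0 counts in all 6 libraries.

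Most genes for proteins that bind DLX or MSX factors had small changes. Of 19 genes, 14 were tested, 2 rose, 6 fell and 6 missed the threshold, where 29.8% of all tested genes rose and 28.8% fell. Their median log2 fold change was -0.11. MAGED1, also called Dlxin-1, which links DLX and MSX proteins into complexes, stood at 422, 416 and 433 CPM with DLX5 and 395, 369 and 373 CPM in control (log2 fold change 0.16 ± 0.06 SE, edgeR adjusted p = 0.0198). NDN, the MAGE protein necdin, stood at 12.2, 13.9 and 11.1 CPM against 7.84, 6.05 and 4.87 CPM (log2 fold change 0.99 ± 0.15 SE). The Groucho corepressors TLE3 and TLE4 fell by 0.31 ± 0.06 and 0.25 ± 0.07, and PIAS2, a SUMO ligase, fell by 0.21 ± 0.08 (log2 scale, ± SE). RUNX2, given above, is in this list too. The fall of the others, PIAS4 and HDAC1, was smaller still (-0.18 ± 0.08 and -0.15 ± 0.06), and they are named after their values were seen. The list had 8 calls as reported, and the number of calls was 4 without DLX5 replicate 1 or without control replicate 3, 5 without DLX5 replicate 3 and 5 with DESeq2.

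**Figure D4:**
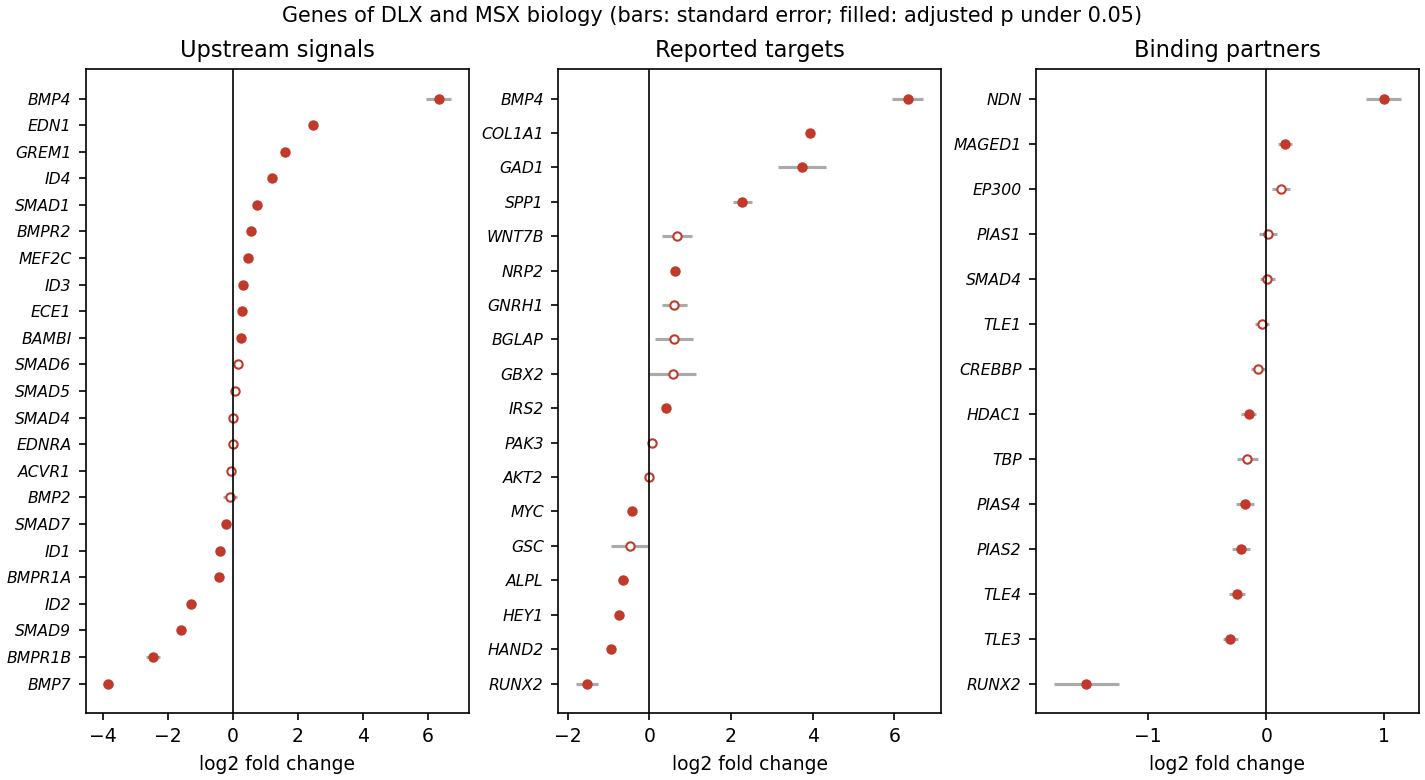
log2 fold change (DLX5 libraries minus controls) with standard error of every tested gene of the lists of upstream signals (23), reported targets (18) and binding partners (14). BMP4 and BMP7 mark the ends of the upstream list at 6.33 and -3.83, while the binding partners lie within a narrower range.

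MYCN, which the series title names beside DLX5, stood at 26.9, 26.2 and 26.7 CPM with DLX5 and 5.36, 4.92 and 4.39 CPM in control (log2 fold change 2.45 ± 0.11 SE). The protein-coding genes whose log2 CPM ran most like DLX5 over the 6 libraries were C1orf198, MGP and EMP3. For DLX6-AS1 they were STC2, PROM1 and BHLHE40, and for MSX2 they were HTRA1, CD82 and BHLHE40. They were picked by Pearson correlation among 401 genes with a change of at least 4-fold, of which 306 had an r above 0.99 with DLX5, 267 with DLX6-AS1 and 269 with MSX2. The points share the same 2 groups of libraries, and no test was made.

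The libraries held 14644077 to 16886026 counts. Marker counts are to be read beside the 29.8% of all tested genes that rose and the 28.8% that fell. All 10 markers of sympathetic neuroblastoma cells were detected, and all 10 fell with DLX5, their summed level being 4784 to 5326 CPM in the controls and 1705 to 1843 CPM in the DLX5 libraries. Of 9 fibroblast markers 8 rose and 0 fell (summed 1461 to 1503 CPM in control, 4999 to 5172 CPM with DLX5), and of 8 epithelial markers, 7 of them tested, 5 rose and 1, KRT19, fell (20.4 to 24.1 CPM against 363 to 385 CPM). Of 8 endothelial and blood markers, 4 were tested and 1, PECAM1, rose (1.26 to 2.07 CPM against 2.71 to 3.91 CPM). These names were taken after the values were seen. CDH5, PTPRC, HBA1 and HBB had between 0 and 4 counts over each group. Their part in the changes of the DLX and MSX genes was not tested. In bulk RNA, fewer cells of a type and less RNA per cell cannot be told apart.

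**Figure D5:**
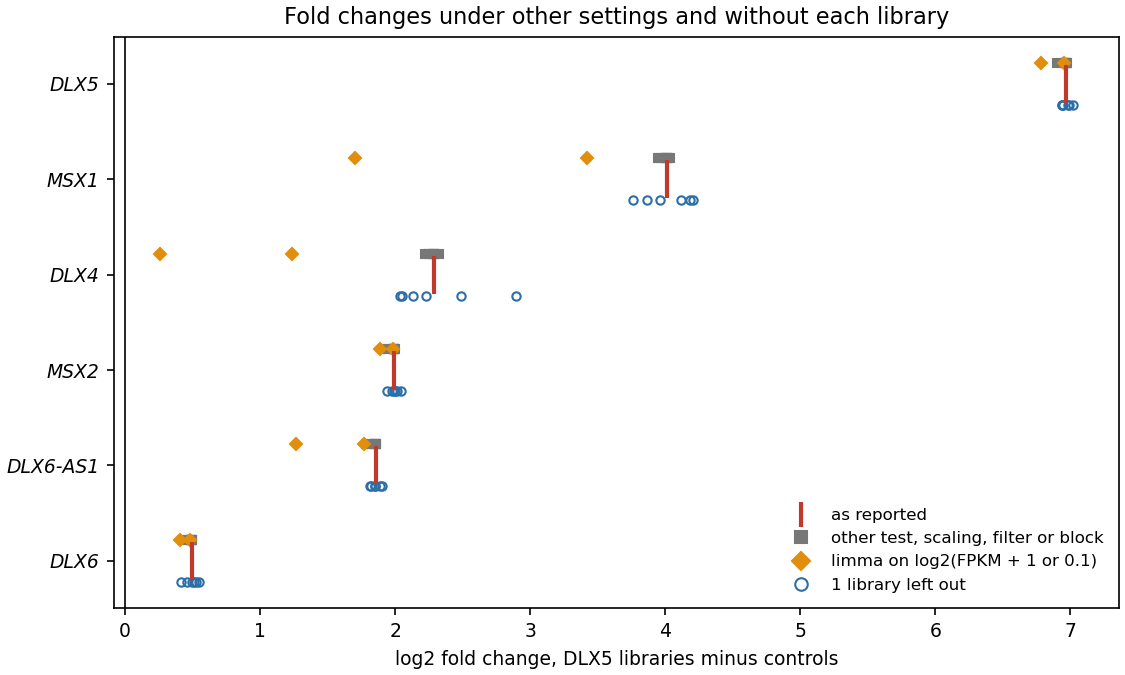
log2 fold change of the 6 tested members as reported (red bar), under other tests, scalings, filters and the replicate block (grey), on FPKM values (orange) and without each library (open circles). Every point is above 0, and the values on log2(FPKM + 1) are the lowest for each member, down to 0.26 for DLX4.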

How the data were processed

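Per the labels' protocols, Trizol RNA went into NEBNext Ultra libraries. The authors deposited whole-number gene counts. The submitters' processing notes name HISAT2 2.0.5, featureCounts 1.5.0-p3 and hg19, without settings or strand. All 58735 genes of the tables have the starts and ends of GENCODE 29 on GRCh38, so coordinates are given as GRCh38. The FPKM values deposited by the authors equal the counts over the gene length and over 0.968 to 1.03 times the count sum, so they hold the same reads.

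Genes were kept by filterByExpr and scaled by TMM, and tested with the quasi-likelihood test (two-sided) of edgeR 4.0.16 (R 4.3.3), with no covariate. Standard errors are the change over the square root of F. An adjusted p from edgeR or limma covers all genes tested in its fit, 17269 as reported and up to 33755 in the alternatives. DESeq2 ran with its default filter on low counts, and its adjusted p covers only the genes which that filter kept. Exact permutation p-values are not adjusted. Within a group, chi-square per degree of freedom between libraries was 2.23 to 5.07, above sampling noise, so none was taken for a copy. Alternatives used DESeq2 1.42.0, limma 3.58.1, other scalings, filters, thresholds, FPKM values, the replicate block and each library left out. The text names all members, up to 6 genes per pathway or neighbour list with the smallest adjusted p, RUNX2, MAGED1, SEM1 and MYCN, and 3 genes most like each of 3 members. Members and lists were chosen with earlier results of these data known. One further marker list is not reported here.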

Additional observations from a re-analysis of the deposited data

How the results depend on the processing

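All 6 tested members stayed higher with DLX5 and past the threshold under every alternative that could test them. DLX4 could not be tested with 1 CPM in 3 libraries, nor DLX6-AS1 among protein-coding genes only. Without each library in turn, log2 fold changes ran from 6.93 to 7.02 for DLX5, 0.41 to 0.55 for DLX6, 1.81 to 1.90 for DLX6-AS1, 2.04 to 2.89 for DLX4, 3.76 to 4.20 for MSX1 and 1.94 to 2.04 for MSX2. On log2(FPKM + 1) values those of DLX4 and MSX1 were 0.26 and 1.70, since the pseudocount is large beside their levels. DLX1, DLX2 and DLX3 gained a test with no filter on low counts (log2 fold changes 2.65, 6.33 and 6.28, adjusted p = 0.000174, 2.36e-06 and 3.98e-06) and with DESeq2 (2.72, 5.75 and 5.70, adjusted p = 0.00958, 0.000258 and 0.000324). The sizes for DLX2 and DLX3 were fitted against 0 control counts and are no bound. DLX1 was also tested when 1 of 4 libraries was left out (2.31 to 3.06). Of the binding partners 8 passed as reported, 5 with DESeq2 and 4 to 6 without single libraries, and the cause was not tested. At an adjusted p under 0.01 in the same edgeR fit 4 passed. MAGED1, PIAS2, PIAS4 and HDAC1 had an edgeR adjusted p of 0.0198 to 0.0468 and lay above that threshold. Of the endothelial and blood markers 0 passed with 1 CPM in 3 libraries, a filter that left 15953 genes to test, and the cause was not tested. With the replicate block 10224 genes changed, against 10121 without, and all 6 tested members kept their call. Deviations of same-numbered libraries correlated at 0.00688, 0.0944 and -0.0399, and not every library correlated best with its own number. With so few libraries these values cannot tell whether the numbers mark samples handled together. Depth limits DLX1 to DLX4, which had 46 counts or fewer in either group.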
